A study of Mus musculus with 32 samples.

Results

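Proteasome subunit genes were followed through 3 array experiments on mouse B-lineage cells and B-cell tumours. The members were all genes whose platform symbol begins with Psma, Psmb, Psmc, Psmd, Psme, Psmf or Psmg followed by a digit. There were 49 such genes, measured by 103 probe sets, among the 18194 genes with a probe set of their own. Of these, 45 encode subunits, activators, an inhibitor or assembly factors. They divide into 7 core alpha genes, 7 core beta genes, 6 regulatory ATPases and 11 regulatory non-ATPases. A further 4 are the genes of the immunoproteasome and its activator PA28 (Psmb8, Psmb9, Psmb10 and Psme1), and 10 are assembly factors, other activators and an inhibitor. The other 4 matches were kept apart: Psma8 and Psmb11 encode tissue-restricted subunits, and Psmc3ip and Psme3ip1 encode proteins that are not subunits. Psme2, the partner of Psme1 in PA28, has only a probe set shared with Psme2b and was not analysed here. The rule for members reads the symbols alone and no measured value. One probe set stood for each gene in each experiment, the one with the largest variance over its arrays.

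The proteasome degrades proteins that carry ubiquitin chains. Its core is a barrel of alpha and beta rings, and Psmb5, Psmb6 and Psmb7 are the catalytic beta subunits. The regulatory particle caps the barrel, binds ubiquitin, and unfolds substrates with a ring of ATPases. In lymphocytes and other cells exposed to interferon, Psmb8, Psmb9 and Psmb10 replace the catalytic subunits Psmb5, Psmb6 and Psmb7. The resulting immunoproteasome favours peptides that fit MHC class I molecules.

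The series held 32 arrays of C57BL/6J material. In the first experiment the pre-B cell line 230238 carried a retrovirus (pMIG) encoding Ebf1-Engrailed, the B-lineage factor Ebf1 joined to a repressor domain, on 3 arrays. The empty pMIG virus was on the 3 control arrays, and both groups were sorted for GFP, 500000 cells a sample. In the second, fetal liver cells of Ebf1-/- embryos (day 14.5) grew on OP9 stromal cells with KIT ligand, FLT3 ligand and IL-7. All of these cells carried pMIG-Ebf1-ER, which makes an Ebf1 fusion switched on by 4-hydroxytamoxifen, and were sorted for GFP. The drug, at 0.1 uM, was present for 0 h, 6 h, 12 h or 24 h, with 2 arrays at each time. In the third, sorted live cells came from enlarged lymph nodes of 8 Ebf1+/-Pax5+/- mice aged about 30 weeks, with 2 arrays a node. They were compared with sorted pro-B cells of wild-type C57BL/6 mice on 2 arrays (numbers 621 and 622), with equal cell numbers a sample. The line is a single cell line, the progenitors lack Ebf1 in every group, and in the third experiment the node cells had been frozen and thawed and were sorted as live cells, whereas the wild-type cells were sorted as pro-B cells. A group given 4-hydroxytamoxifen without Ebf1-ER was not analysed here, so the drug and Ebf1-ER activity cannot be told apart.

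Values are log2 signals from which the deposited table had a constant removed for each probe set within an experiment. They therefore show differences between arrays of an experiment, and no gene's level can be set against another's. A gene was called higher or lower when limma's adjusted p, taken over all 18194 genes, was under 0.05. Errors beside log2 differences are limma's standard errors. In bulk samples such as these, fewer cells of a type and less RNA per cell cannot be told apart.

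Several features of whole arrays bear on what follows. In the line, 4 of 5 Ebf1 probe sets fell with Ebf1-Engrailed (log2 differences from -1.50 to -1.77). The third Ebf1-Engrailed array stood between the others and the controls on the first principal component, which held 68.7% of the variance. In the Ebf1-ER course 4 of 5 Ebf1 probe sets were lower at 6 h and at 24 h than at 0 h (-0.48 to -0.77), and 3 at 12 h. There the first component held 70.2% of the variance and set the 0 h arrays apart from all later ones. The 0 h arrays also had the highest mean of 7 stromal markers (1.10 and 0.61, against -0.35 to 0.46 later) of the natural killer markers (0.95 and 1.04), and of 10 myeloid, 10 T-cell and 4 dendritic markers. The myeloid mean was 0.56 and 0.45 at 0 h and at most 0.14 later, the T-cell mean 0.46 and 0.49 and at most 0.09 later, and the dendritic mean 0.60 and 0.79 and at most 0.30 later. At 6 h, 5 of 10 myeloid, 5 of 10 T-cell, 4 of 5 natural killer, 2 of 7 stromal and 2 of 4 dendritic genes were lower. Over all genes 16.4% were lower, and the myeloid and T-cell lists each had 1 gene called higher. The stromal and T-cell means rest on part of their lists. At 0 h Thbs1 read 3.57 and 2.59 and Trat1 2.63 and 2.97, while Cd3e read 0.11 and 0.00 and Cd4 -0.10 and -0.13. The 2 wild-type pro-B arrays were high in myeloid markers, with a list mean of 3.68 and 3.84 against -1.41 to 1.33 in the nodes, and 8 of 10 of those genes were lower in the nodes (S100a8 by a log2 difference of -7.67). In the nodes 4 of 5 Ebf1 probe sets were lower than in wild-type cells, whereas the most variable one was higher by 4.48. Node 279 was highest in T-cell markers, with a list mean of 2.50.

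The regions before the starts of 4 members are printed as examples. Psmb5 and Psmd12 belong to the constitutive core and the regulatory particle, and Psmb8 and Psmb9 to the immunoproteasome. Each of the 4 holds a motif match, and the shares of their classes with such a match are given below. All are RefSeq sequence of GRCm38.p6, written 5′ to 3′ on the strand of the gene up to the base before its start, with a searched motif in capitals. Psmb5 (chr14:54617996-54618245, minus strand) holds TGACGTCGC, a match to TGACNNNGC, the core letters of the antioxidant response element bound by the factors Nfe2l1 and Nfe2l2. In Psmd12 (chr11:107479278-107479527, plus strand) the match lies on the opposite strand, 247 bases before the start. Psmb8 (chr17:34197945-34198194, plus strand) holds TTCCCAGAA, a match to the STAT motif TTCNNNGAA. Psmb9 (chr17:34187331-34187555, minus strand) holds ATTGG, which is CCAAT on the opposite strand, 8 bases before the start.
Psmb5: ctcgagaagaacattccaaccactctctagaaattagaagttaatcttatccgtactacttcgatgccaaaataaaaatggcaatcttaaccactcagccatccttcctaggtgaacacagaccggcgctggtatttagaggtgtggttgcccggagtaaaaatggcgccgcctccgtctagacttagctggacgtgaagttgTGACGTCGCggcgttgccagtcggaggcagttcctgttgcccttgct
Psmd12: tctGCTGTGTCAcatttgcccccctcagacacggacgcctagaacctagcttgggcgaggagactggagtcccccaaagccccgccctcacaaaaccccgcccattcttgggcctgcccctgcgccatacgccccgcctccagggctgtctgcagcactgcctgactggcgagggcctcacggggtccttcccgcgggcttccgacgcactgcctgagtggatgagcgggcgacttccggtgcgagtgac
Psmb8: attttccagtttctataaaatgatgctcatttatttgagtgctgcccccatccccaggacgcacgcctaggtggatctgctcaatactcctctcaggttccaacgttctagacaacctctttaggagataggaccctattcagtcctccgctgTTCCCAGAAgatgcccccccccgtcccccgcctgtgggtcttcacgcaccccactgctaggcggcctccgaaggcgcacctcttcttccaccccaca
Psmb9: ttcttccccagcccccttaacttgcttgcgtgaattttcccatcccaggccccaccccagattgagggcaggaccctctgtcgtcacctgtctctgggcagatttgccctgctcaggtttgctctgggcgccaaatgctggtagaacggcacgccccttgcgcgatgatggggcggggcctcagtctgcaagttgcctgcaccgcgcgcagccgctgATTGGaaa

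Psmb9 and Psmb8 lie in the MHC region of chromosome 17, interleaved with the peptide transporter genes Tap1 and Tap2. Psmb9 (chr17:34182030-34187330, minus strand) and Tap1 (chr17:34187556-34197225, plus strand) point away from each other, and the 225 bases printed for Psmb9 are all that separates their starts. Psmb8 follows at chr17:34198195-34201454, and the 4 genes span 34292 bases. Windows of 300 bases (250 before the start and 50 from it) were available for 38 of the 45 genes and were compared with those of 27025 genes. TGACNNNGC, read on both strands, was in the windows of 6 of the 38 genes (15.8%) and of 14.0% of all genes. By class it was in 2 of 4 core beta genes and 0 of 7 core alpha genes. Among regulatory non-ATPases it was in 1 of 9, Psmd12. TTCNNNGAA was in 3 (7.89%) and in 9.55% of all genes, and CCAAT in 13 (34.2%) and in 41.1%. Of the 4 immunoproteasome and PA28 genes, 1 held TTCNNNGAA (Psmb8) and 1 held CCAAT (Psmb9). The interferon-stimulated response element, searched as a pair of GAAA blocks 2 bases apart, was in 5 of the 38 (13.2%) and in 3.99% of all genes. The 5 were Psmb3, Psmd4 and Psmd9, where it lay before the start, and Psmg4 and Psme1, where it lay after the start. Psmb8, Psmb9 and Psmb10 had no match to it. These matches describe the letters of the windows and are not binding sites.

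The Ebf1-ER course asks how transcripts of Ebf1-deficient progenitors move once Ebf1 activity is switched on. Most proteasome genes rose within 6 h of 4-hydroxytamoxifen, and most were still higher than at 0 h at the later times. At 6 h, 32 of the 45 genes were higher (71.1%) and 5 lower, where the calls over all genes came to 18.6% higher and 16.4% lower. At 12 h the counts were 33 and 5, against 19.9% and 19.9% of all genes. At 24 h they were 31 and 5, against 21.0% and 17.8%. The median log2 difference of the 45 genes was 0.54, 0.55 and 0.59 at the 3 times, and that of all genes 0.03, 0.03 and 0.05. The probe set of each gene was picked by its variance over these same arrays, which can favour large differences. With the mean of all probe sets the medians of the 45 were 0.40, 0.43 and 0.48. Then 30, 32 and 32 genes were higher and 4, 3 and 3 lower. Any call, in either direction, was made for 35.1%, 39.8% and 38.8% of all genes. The arrays of the groups did not overlap for 40, 42 and 41 of the 45 genes, where that held for 60.3%, 65.9% and 64.9% of all genes. The 3 comparisons share the 0 h arrays, so they are not independent of each other. The mean of the 45 centred values was -0.43 on both 0 h arrays and between -0.02 and 0.06 on the 6 later ones. Both 0 h arrays thus lay below every later array, and the later times lay close together.

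**Figure D1:**
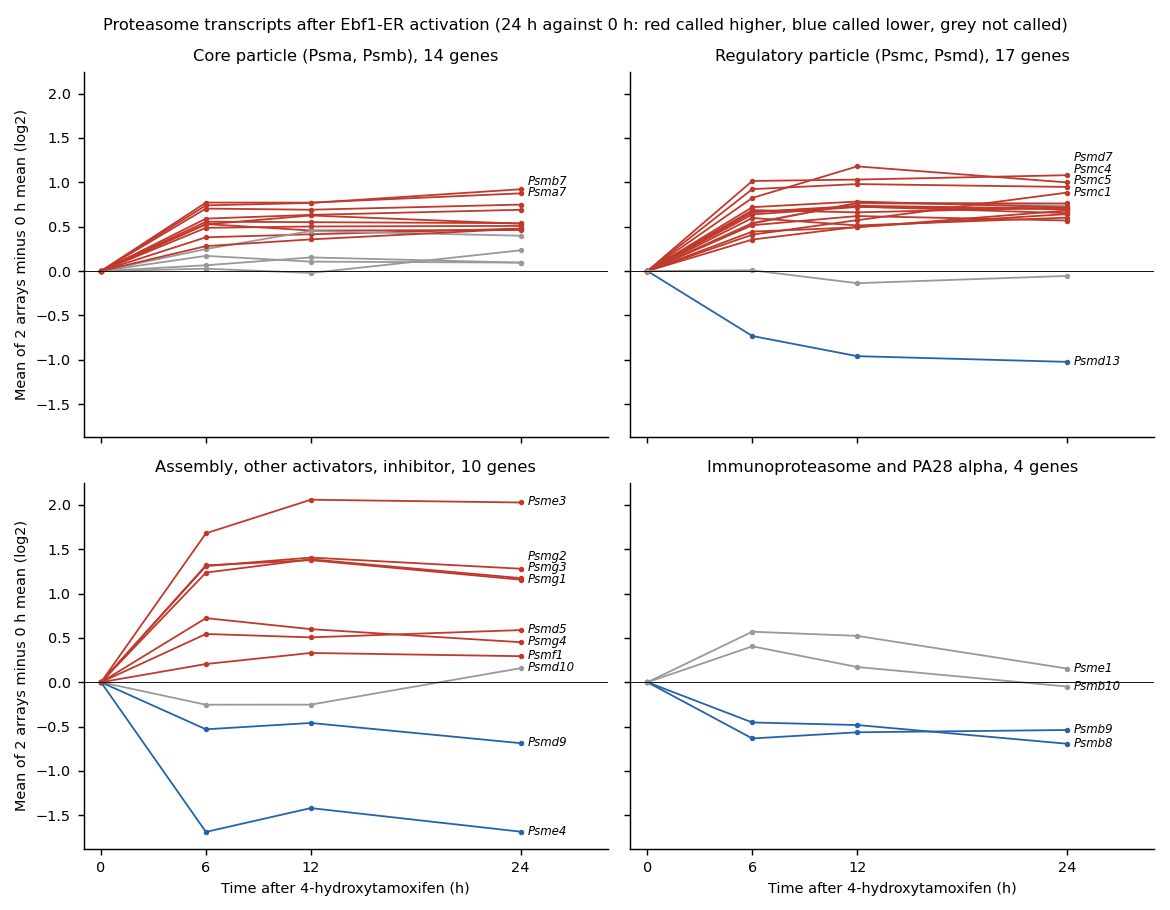
Log2 difference from the mean of the 2 arrays at 0 h (vertical axis) against hours of 4-hydroxytamoxifen (horizontal axis) for the proteasome genes, in panels by class. Each line is the mean of 2 arrays for 1 gene, red where called higher at 24 h, blue where lower and grey where not called. Most lines reach their height by 6 h (32 of 45 called higher), and the blue lines are Psme4, Psmd13, Psmd9, Psmb8 and Psmb9.

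Core particle genes were called higher or not called, and none was called lower. Of the 14 alpha and beta genes, 10 were higher at each of 6, 12 and 24 h, with median log2 differences of 0.51, 0.48 and 0.49. Psma7, an alpha-ring subunit, read -0.71 and -0.83 at 0 h, 0.00 and -0.00 at 6 h, -0.02 and 0.02 at 12 h, and 0.10 and 0.11 at 24 h. Its arrays did not overlap between 0 h and any later time, and the log2 differences were 0.77, 0.77 and 0.88 (each ± 0.09). Psmb7, the beta subunit with trypsin-like activity, read -0.64 and -0.86 at 0 h, 0.03 and -0.05 at 6 h, -0.03 and 0.07 at 12 h, and 0.20 and 0.14 at 24 h. It rose by 0.74, 0.77 and 0.92 ± 0.11 (adjusted p = 0.001, 0.00071 and 0.0003). Psmb5, with chymotrypsin-like activity, rose by 0.56, 0.55 and 0.54 ± 0.11, from -0.40 and -0.66 at 0 h to between -0.01 and 0.06 later. Psmb6, with caspase-like activity, went from -0.24 and -0.38 at 0 h to -0.03 on both 6 h arrays and to 0.15 and 0.18 at 24 h. Its differences were 0.28, 0.36 and 0.48 ± 0.09 (adjusted p = 0.045, 0.015 and 0.0038), and the call at 6 h was lost in most alternative settings. The 4 core genes not called at any time were Psma1, Psma6, Psmb1 and Psmb4. For Psma6 the most variable probe set differed by 0.23 ± 0.17 at 24 h, while 2 of its 4 probe sets were higher.

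Regulatory particle genes also rose. At 24 h, 14 of 17 were higher and 1 lower, with a median log2 difference of 0.70. With the mean of all probe sets 15 were higher and none lower, and the median was 0.57. Among the 6 ATPases, which unfold and thread substrates, 5 were higher at 6 h, all 6 at 12 h and 5 at 24 h. Psmc5 went from -0.84 and -1.01 at 0 h to between -0.01 and 0.12 later, log2 differences of 0.92, 0.98 and 0.95 ± 0.10. Psmc4 rose by 0.82, 1.18 and 1.00 ± 0.17, from -1.14 and -0.74 at 0 h. Psmc6, whose 2 arrays at 0 h read -0.83 and -0.22, passed the test at 12 h only with this probe set (0.77 ± 0.26, adjusted p = 0.048).

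Of the 11 non-ATPases 9 were higher and 1 lower at each time, with medians of 0.64, 0.72 and 0.70. With the mean of all probe sets 8, 8 and 9 were higher and none lower, and the medians were 0.47, 0.43 and 0.53. Psmd7, the inactive partner of the deubiquitinase Psmd14 in the lid, read -0.94 and -1.12 at 0 h, 0.02 and -0.05 at 6 h, -0.02 and 0.02 at 12 h, and 0.08 and 0.02 at 24 h. It rose by 1.02, 1.03 and 1.08 ± 0.10 with this probe set, and 1 of its 3 probe sets was called at 6 h. Psmd14 itself went from -0.58 and -0.74 to between -0.01 and 0.07, differences of 0.69, 0.66 and 0.72 ± 0.09. Psmd12, whose upstream sequence is printed above, rose by 0.72, 0.78 and 0.72 ± 0.09. The base scaffold gene Psmd1 rose by 0.66, 0.74 and 0.70 ± 0.09, and the ubiquitin receptor gene Psmd4 by 0.60, 0.51 and 0.60 ± 0.10. Psmd8 was not called at any time (0.01, -0.14 and -0.06 ± 0.09).

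The largest rises among the 45 belonged to assembly factors and to the nuclear activator gene Psme3. Psme3 read -1.72 and -2.02 at 0 h, -0.26 and -0.13 at 6 h, 0.24 and 0.14 at 12 h, and 0.13 and 0.19 at 24 h. The groups lay far apart, at 3.2-fold, 4.16-fold and 4.07-fold above 0 h (log2 differences 1.68, 2.06 and 2.03 ± 0.12, adjusted p = 3.6e-05, 1.1e-05 and 1.6e-05). Its 3 probe sets differed, and 2 of them were higher at each time. Psmg1, Psmg2 and Psmg3 encode chaperones that build the alpha ring. Psmg1 went from -1.21 and -1.27 at 0 h to 0.06 and 0.09 at 6 h, 0.14 and 0.13 at 12 h, and -0.10 and -0.06 at 24 h. Psmg2 went from -1.31 and -1.27 to 0.04 and 0.00, then 0.06 and 0.18, then -0.00 and -0.01. Psmg3 followed the same course, from -1.16 and -1.24 to 0.01 and 0.07 at 6 h. No later array of these 3 genes came within 1 log2 unit of its 0 h arrays. Their log2 differences at 6, 12 and 24 h were 1.32, 1.38 and 1.16 ± 0.08 for Psmg1, 1.31, 1.41 and 1.28 ± 0.09 for Psmg2, and 1.24, 1.39 and 1.17 ± 0.09 for Psmg3. The fourth chaperone gene, Psmg4, rose by 0.72, 0.60 and 0.45 ± 0.10. Psmd5, a chaperone of the ATPase ring, rose by 0.54, 0.51 and 0.59 ± 0.09, while its partner in that task, Psmd10, was not called against 0 h (-0.25, -0.25 and 0.16 ± 0.09). Psmf1, the inhibitor gene, was called at 12 h and 24 h (0.33 and 0.29 ± 0.10) and not at 6 h (0.21).

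The genes called lower at each time were Psme4, Psmd13, Psmd9, Psmb8 and Psmb9. Psme4 encodes the activator PA200 and read 1.48 and 1.59 at 0 h, -0.08 and -0.23 at 6 h, 0.06 and 0.17 at 12 h, and -0.06 and -0.25 at 24 h. Its log2 differences were -1.69, -1.42 and -1.68 ± 0.11 (adjusted p = 2.5e-05, 3.7e-05 and 2.3e-05). At 24 h 3 of its 6 probe sets were lower and 1 was higher. Psmd13, a lid subunit gene, read 0.77 and 0.91 at 0 h and between -0.23 and 0.14 later, differences of -0.73, -0.96 and -1.02 ± 0.10. This rested on 1 of its 4 probe sets, while 2 others were higher at 24 h, and the mean of all 4 differed by 0.04, 0.07 and 0.09. Psmd9, a chaperone gene, differed by -0.53, -0.46 and -0.69 ± 0.14, with 1 of 3 probe sets lower and 1 higher at 24 h. The mean of its 3 probe sets differed by -0.07, -0.01 and -0.04 and was not called, and leaving out the second 0 h array ended its calls at 6 h and 12 h (-0.37 and -0.29). For Psmd13 and Psmd9, and for Psme4 at 24 h, the direction therefore depends on the probe set. Over all alternatives, the mean of its probe sets among them, Psme4 stayed lower. Its log2 differences ran from -1.76 to -0.76 at 6 h, -1.47 to -0.61 at 12 h and -1.78 to -0.66 at 24 h. Among the 27 genes with several probe sets, called probe sets of 1 gene pointed opposite ways in 2 genes at 6 h, 2 at 12 h and 3 at 24 h.

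**Figure D2:**
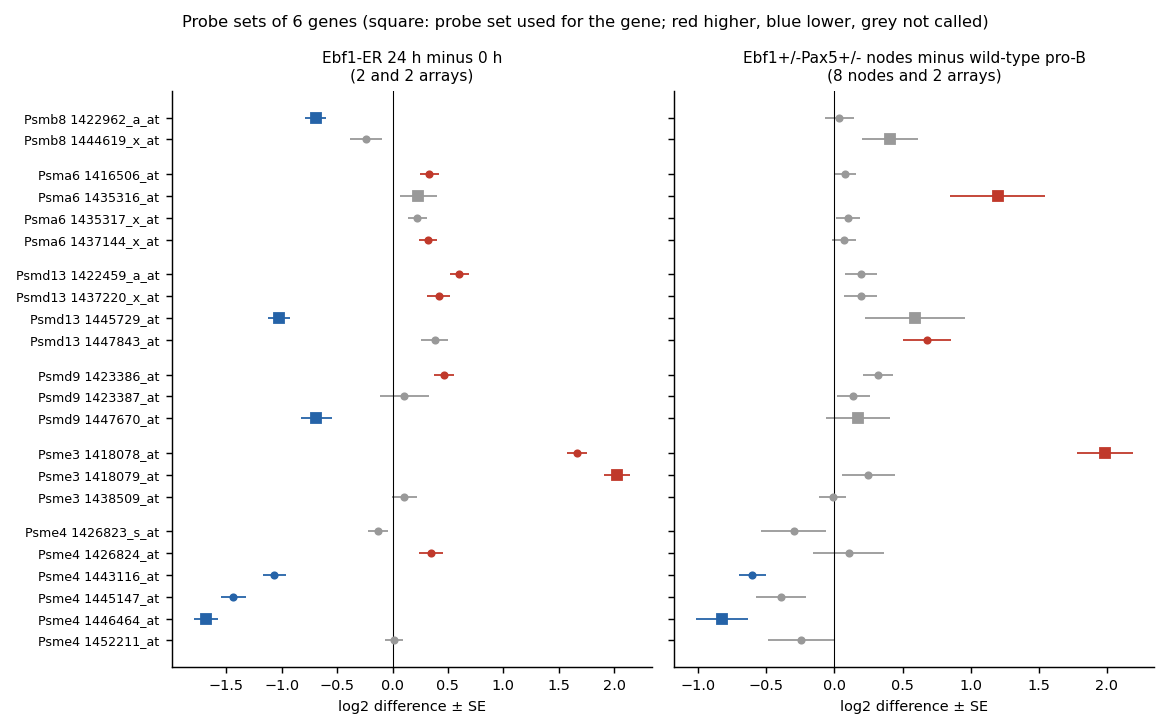
Log2 difference ± SE (horizontal axis) of every probe set of Psmb8, Psma6, Psmd13, Psmd9, Psme3 and Psme4 in 2 comparisons, 24 h against 0 h and tumour lymph nodes against wild-type pro-B cells. Squares mark the probe set used for the gene, and for Psmd13, Psmd9 and Psme4 at 24 h probe sets of 1 gene lie on both sides of 0.

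Of the 4 immunoproteasome and PA28 genes, 2 were higher and 2 lower at 6 h, 1 and 2 at 12 h, and 0 and 2 at 24 h. Psmb8 read 0.52 and 0.45 at 0 h, -0.05 and 0.11 at 6 h, -0.01 and 0.01 at 12 h, and -0.24 and -0.18 at 24 h. Its log2 differences were -0.45, -0.48 and -0.69 (± 0.09, adjusted p = 0.0066, 0.0043 and 0.00071), with 1 of its 2 probe sets. Psmb9 read 0.54 and 0.55 at 0 h and between -0.13 and 0.02 on every later array. It fell at each time, with differences of -0.63, -0.56 and -0.54 (± 0.09, adjusted p = 0.00082, 0.0012 and 0.0017). Both genes were thus higher on the 0 h arrays than on all others, the reverse of their constitutive partners. Psmb10 and the PA28 gene Psme1 were higher at 6 h and were not called against 0 h at 24 h. Psmb10 read -0.07 and -0.09 at 0 h, 0.27 and 0.38 at 6 h, 0.11 and 0.07 at 12 h, and -0.14 and -0.11 at 24 h. It was higher at 6 h (0.40 ± 0.09, adjusted p = 0.0083; 0.35 and adjusted p = 0.057 without the second 6 h array) and not called at 12 h (0.17, adjusted p = 0.17) or 24 h (-0.05, adjusted p = 0.72). Psme1 read -0.34 and -0.36 at 0 h, 0.19 and 0.26 at 6 h, 0.19 and 0.17 at 12 h, and -0.22 and -0.17 at 24 h. It was higher at 6 h and 12 h (0.57 and 0.52 ± 0.09, adjusted p = 0.0013 and 0.0017) and not called at 24 h (0.15, adjusted p = 0.21), where quantile normalisation turned its sign (-0.09).

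Each induced catalytic gene can be set against the constitutive gene it replaces by subtracting centred values on the same array. Psmb8 minus Psmb5 was 0.92 and 1.11 at 0 h, -0.04 and 0.04 at 6 h, -0.06 and 0.02 at 12 h, and -0.25 and -0.20 at 24 h. Psmb9 minus Psmb6 was 0.78 and 0.93 at 0 h and between -0.17 and -0.03 later. Psmb10 minus Psmb7 moved more slowly, from 0.57 and 0.76 at 0 h through 0.24 and 0.43 at 6 h and 0.15 and -0.00 at 12 h to -0.35 and -0.26 at 24 h. All 3 differences were highest on the 0 h arrays, with no overlap with later arrays. These are differences of centred values and say nothing of which gene of a pair was more abundant.

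**Figure D3:**
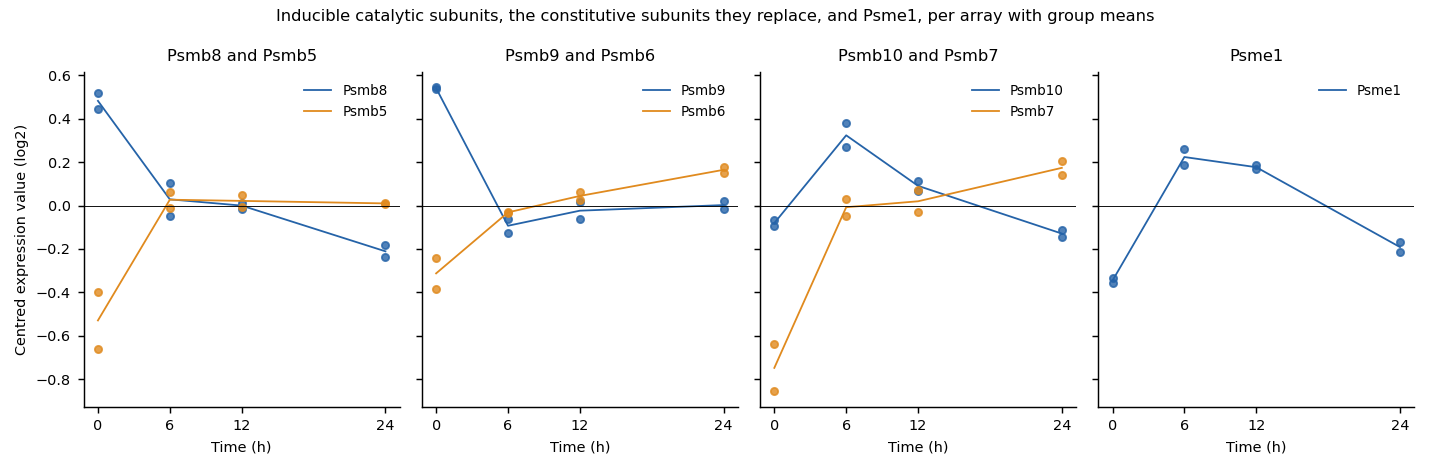
Centred log2 value on each array (vertical axis) of the induced genes Psmb8, Psmb9 and Psmb10 with their constitutive partners Psmb5, Psmb6 and Psmb7, and of Psme1, in panels by gene pair, over the Ebf1-ER course (horizontal axis, hours of 4-hydroxytamoxifen). Each point is 1 array, 2 at each time, lines join the group means, blue marks induced and orange constitutive genes, and Psmb8 (0.52 and 0.45) lies above Psmb5 (-0.40 and -0.66) at 0 h and among its points at 6 h.

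From 6 h to 24 h few of these genes moved. Of 45, 2 were higher and 2 lower (median log2 difference 0.04), where 4.92% and 4.39% of all genes were called. The 2 times did not overlap for 27 of the 45, against 53.8% of all genes. Psmc1 went from -0.10 and -0.06 at 6 h to 0.39 and 0.40 at 24 h (0.47 ± 0.09, adjusted p = 0.015). Psmd10 went from -0.09 and -0.21 to 0.24 and 0.29 (0.41 ± 0.09, adjusted p = 0.029). Psmb10 and Psme1 fell, with differences of -0.45 and -0.42 (adjusted p = 0.019 and 0.024). None of these calls remained when any 1 of the 6 h or 24 h arrays was left out. The share called, in either direction, was near the 9.31% of all genes.

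Genes that serve the proteasome moved in both directions over the course. Of 14 other partners of the complex, 6, 7 and 7 were higher and 3, 4 and 3 lower at 6, 12 and 24 h. Usp14 and Uchl5 encode deubiquitinases of the regulatory particle. Usp14 read -1.25 and -1.09 at 0 h and between -0.14 and 0.18 later, and rose by 1.09, 1.29 and 1.24, and Uchl5 rose by 1.50, 1.99 and 1.55 ± 0.23. Pomp, the chaperone that matures the core, rose by 0.53, 0.43 and 0.52. Nfe2l2, a transcription factor that can raise proteasome genes under oxidative stress, read 3.28 and 3.41 at 0 h and between -0.33 and 0.13 later, with log2 differences of -3.27, -3.55 and -3.43 ± 0.12. Nfe2l1, the factor of the proteasome recovery response, was not called (-0.07, -0.09 and -0.21). Of 10 genes of ubiquitin supply and delivery, 7 were higher and 1 lower at each time, among them Thop1 (1.61, 1.79 and 1.34), which cleaves proteasome products, and Uba6 (0.99, 0.99 and 1.07), a ubiquitin-activating enzyme.

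Genes of peptide loading, the step that follows the immunoproteasome, moved both ways. Among 12 genes of MHC class I peptide loading, 5 were higher and 5 lower at 6 h, 5 and 6 at 12 h, and 4 and 5 at 24 h. Tap1, which shares an intergenic stretch with Psmb9, read 0.73 and 0.87 at 0 h and between -0.16 and 0.12 later (-0.75, -0.82 and -0.93 ± 0.10). Tap2 also fell, with log2 differences of -1.32, -1.38 and -1.20. The peptide trimming enzyme gene Erap1 rose by 1.77, 1.67 and 1.13. Of 14 interferon regulators and response genes 12 were lower at 6 h and all 14 at 12 h and 24 h. Their mean centred value was 1.21 and 1.35 at 0 h and between -0.33 and 0.15 later. The part of the interferon genes, and of the stromal, natural killer, myeloid, T-cell and dendritic markers that were also highest at 0 h, in the values of Psmb8 and Psmb9 was not tested.

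The cell division list rose over the same hours. Of its 15 genes, 8 were higher and 3 lower at 6 h, and the higher ones numbered 14 at 12 h and 15 at 24 h. Its mean was -0.95 and -0.83 at 0 h, -0.47 and -0.55 at 6 h, 0.30 and 0.32 at 12 h, and 0.55 and 0.45 at 24 h. Psmc3ip, the recombination factor gene named apart from the subunits, also rose, with most of its rise by 6 h. It read -1.56 and -1.60 at 0 h, -0.15 and -0.43 at 6 h, 0.32 and 0.35 at 12 h, and 0.37 and 0.15 at 24 h. Its log2 differences from 0 h were 1.29, 1.91 and 1.84 ± 0.12, and it rose by 0.55 from 6 h to 24 h. The cell division list went on climbing after 6 h (11 of 15 higher at 24 h than at 6 h), when the proteasome mean was already near its later height. The part of cell division in the proteasome rise was not tested. Scaling bore on the size of the rise. After quantile normalisation 12 of the 45 genes were higher at 6 h, 22 at 12 h and 20 at 24 h, with medians of 0.27, 0.35 and 0.35, and 2 or 3 genes were lower. Quantile normalisation ended the calls of Psmb5 at all 3 times, of Psmb8 at 6 h and 12 h, of Psmb7 at 6 h and of Psmb9 at 24 h. It turned none of their signs.

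The line 230238 addresses what a repressive form of Ebf1 does in pre-B cells. Here the proteasome genes were nearly all uncalled. Of the 45, limma called none higher and 1 lower (2 and 3 at an unadjusted p under 0.05), where 13.6% of all genes were called, 7.93% in the higher direction and 5.67% in the lower. The median log2 difference was 0.01, and that of all genes was -0.02. The mean of the 45 was 0.03, -0.02 and -0.14 on the Ebf1-Engrailed arrays and 0.07, 0.07 and -0.24 on the empty vector arrays, so the arrays numbered 3 were the lowest of each group. Non-overlapping groups were seen in 6 of the 45 genes, against 32.0% of all genes.

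The gene called was Psmg2. It read -0.17, -0.16 and -0.10 with Ebf1-Engrailed and 0.59, 0.61 and 0.10 with the empty vector. The groups did not overlap, though the third control array was near them, and the log2 difference was -0.58 ± 0.15 (adjusted p = 0.049). The call was lost without any 1 of 5 of the 6 arrays (adjusted p from 0.072 to 0.17). When limma was fitted over all probe sets, none of the 3 probe sets of Psmg2 was called. The probe set used for Psmg2 in the Ebf1-ER course was another one. Psma1 (-0.55 ± 0.15, adjusted p = 0.054), Psma6 (-0.58 ± 0.18, adjusted p = 0.091) and Psmc1 (0.62 ± 0.20, adjusted p = 0.088) had groups that did not overlap and were not called. Psmc3ip was lower: -0.54, -0.99 and -0.42 against 0.42, 0.54 and 0.49 (-1.13 ± 0.16, adjusted p = 0.0047). It moved beside the cell division list, of which 14 of 15 genes were lower (Kif11 by -1.66 ± 0.22).

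By limma none of the 4 immunoproteasome and PA28 genes was called in the line (1 had an unadjusted p under 0.05), while 5 of 14 interferon genes were higher. Psmb8 read 0.18, 0.22 and -0.84 with Ebf1-Engrailed and 0.02, -0.02 and -0.45 with the empty vector. The groups overlapped, and the difference of 0.01 ± 0.30 has a 95% interval from -0.70 to 0.71. This probe set of Psmb8 was not the one used in the Ebf1-ER course, and neither of the gene's 2 probe sets was called. Psmb9 differed by 0.13 ± 0.17 (interval -0.28 to 0.53) and Psme1 by 0.19 ± 0.15. Psmb10 read 0.56, 0.61 and -0.02 against -0.16, 0.02 and -0.40, a difference of 0.56 ± 0.20 (adjusted p = 0.12). Same-numbered arrays of the groups deviated together. So did array 1 of either group with array 2 of the other, and the numbers need not mark pairs. With the replicate number as a block Psmb10 was called (adjusted p = 0.019). It was also called without the third Ebf1-Engrailed array (adjusted p = 0.016), and over all alternatives its adjusted p ran from 0.0079 to 0.33. Psmb10 minus Psmb7 was 0.43, 0.42 and 0.43 with Ebf1-Engrailed and -0.15, 0.01 and 0.24 with the empty vector, with no overlap. The constitutive genes Psmb5, Psmb6 and Psmb7 differed by 0.28 ± 0.15, 0.21 ± 0.13 and 0.17 ± 0.24 and were not called. With the block, 4 of the 45 genes were called, 2 higher and 2 lower.

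Interferon response genes gave 5 of 14 higher and none lower by limma (9 and 1 at an unadjusted p under 0.05). Their mean was 2.41, 2.40 and 0.14 with Ebf1-Engrailed and -0.33, -0.39 and -0.85 with the empty vector. Ifit1 read 5.11, 5.15 and 0.94 against -1.39, -0.94 and -1.72 (5.08 ± 1.07). By limma that call was lost in 5 of the 6 fits that leave out 1 array, with adjusted p up to 0.093, and was kept without the third Ebf1-Engrailed array. The first and second Ebf1-Engrailed arrays were far above the third. The mean of the 4 immunoproteasome and PA28 genes was 0.25, 0.31 and -0.33 with Ebf1-Engrailed and -0.06, 0.02 and -0.39 with the empty vector, so the groups overlapped. None of the 12 peptide loading genes was called by limma, with 1 higher and 2 lower at an unadjusted p under 0.05. Among proteasome partners, Nfe2l2 (0.92 ± 0.11) and Ube3c (0.54 ± 0.10) were higher and Ngly1, which the recovery factor Nfe2l1 needs for its processing, was lower (-0.89 ± 0.21), 3 of 14 in all. The calls of Ube3c and Ngly1 were each lost in 3 of the 6 fits that leave out 1 array, and that of Nfe2l2 in none of them.

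The tumour comparison sets cells of enlarged lymph nodes of Ebf1+/-Pax5+/- mice against wild-type pro-B cells. Of the 45 genes, 8 were higher (17.8%) and 2 lower, where the calls over all genes came to 19.9%, with 11.3% higher and 8.66% lower. Non-overlapping groups were seen in 15 of the 45, against 28.6% of all genes. The median log2 difference was 0.20, and that of all genes 0.02. The mean of the 45 was -0.27 and -0.28 in the wild-type arrays and between -0.17 and 0.10 in the 8 nodes, so both wild-type arrays lay below every node. The wild-type arrays carried the myeloid signal given above. Also lower in the nodes were 3 of 4 erythroid, 4 of 7 stromal and 1 of 4 dendritic genes. In wild-type cells Alas2 read 2.12 and 2.42 and Thbs1 3.69 and 3.87. The part of these signals in the proteasome differences was not tested. After quantile normalisation 3 genes were higher and none lower, and the split of all genes moved from 2049 higher and 1576 lower to 296 and 405.

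Among the 45, Psme3 and Psmb7 had the largest differences. Psme3 read -1.56 and -2.16 in wild-type cells and from -0.36 through a median of 0.16 to 0.38 in the nodes. The groups were well apart, 3.96-fold (1.98 ± 0.21, adjusted p = 0.00014), though 1 of its 3 probe sets showed it. The probe set used in the Ebf1-ER course was another one, which differed here by 0.25 and was not called. Psmb7 read -1.12 and -1.39 in wild-type cells and from -0.09 through a median of 0.22 to 0.48 in the nodes, 2.72-fold higher (1.44 ± 0.16, adjusted p = 0.00027) with its only probe set. Psmb10 minus Psmb7 was 1.48 and 1.71 in wild-type cells and from -0.63 to 0.29 in the nodes. Psma6 read -1.54 and -0.90 against -0.75 to 0.56 (median 0.02) in the nodes (1.20 ± 0.35, adjusted p = 0.038), with 1 of 4 probe sets. This call was lost in 10 of 17 alternatives, among them the mean of its probe sets (0.36) and the fits without array 621 (0.88, adjusted p = 0.29) or 622 (1.52, adjusted p = 0.097).

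The other genes called higher were spread over classes. The chaperone gene Psmg2 read -0.91 and -0.99 in wild-type cells and -0.50 to 0.27 (median 0.11) in the nodes (0.98 ± 0.18, adjusted p = 0.0043). The inhibitor gene Psmf1 read -0.60 and -0.80 against -0.10 to 0.20 with a median of 0.12 (0.79 ± 0.09, adjusted p = 0.00034), and 3 of its 4 probe sets were higher. The ATPase genes Psmc6 (0.86 ± 0.19) and Psmc5 (0.71 ± 0.14) and the lid gene Psmd12 (0.51 ± 0.11) were also higher. Of the genes called lower, Psme4 read 0.52 and 0.87 in wild-type cells and -0.39 to 0.35 in the nodes with a median of -0.26 (-0.83 ± 0.19, adjusted p = 0.014), with 2 of 6 probe sets lower. Its call was lost without array 622 (-0.65, adjusted p = 0.19). Psmb3, a structural beta subunit gene, was lower by a small margin (-0.26 ± 0.08, adjusted p = 0.05), a call that most alternatives did not keep. Without wild-type array 622, 3 of the 45 genes were called, and without node 292, 14.

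None of the 4 immunoproteasome and PA28 genes was called by limma in this comparison, with 1 higher and 1 lower at an unadjusted p under 0.05. Psmb8 read 0.10 and -0.84 in the wild-type arrays, the first inside the range of the nodes (-0.18 to 0.30) and the second below it. Its difference of 0.41 ± 0.21 became 0.88 (adjusted p = 0.017) without array 621 and -0.06 without 622, and the probe set used in the Ebf1-ER course differed by 0.04. Psmb9 differed by 0.08 ± 0.18 and Psme1 by 0.40 ± 0.17 (adjusted p = 0.13). Psmb10 read 0.36 and 0.33 in wild-type cells, above all 8 nodes (-0.27 to 0.20), and missed the threshold (-0.40 ± 0.13, adjusted p = 0.051). It was called lower in 5 of 16 alternatives, median centring and the mean of probe sets among them (adjusted p = 0.042 and 0.047), and Psme1 was called higher in 3 of 17, such as without node 292 (adjusted p = 0.02). The constitutive partners Psmb5 (0.03 ± 0.10) and Psmb6 (-0.03 ± 0.10) were not called. In the peptide loading list 5 of 12 genes were higher and none lower, among them Canx (1.67), Erap1 (1.33) and Tap1 (0.66, and 0.11 with the mean of its probe sets, not called), and limma called no interferon gene of 14 (1 higher and 1 lower at an unadjusted p under 0.05).

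**Figure D4:**
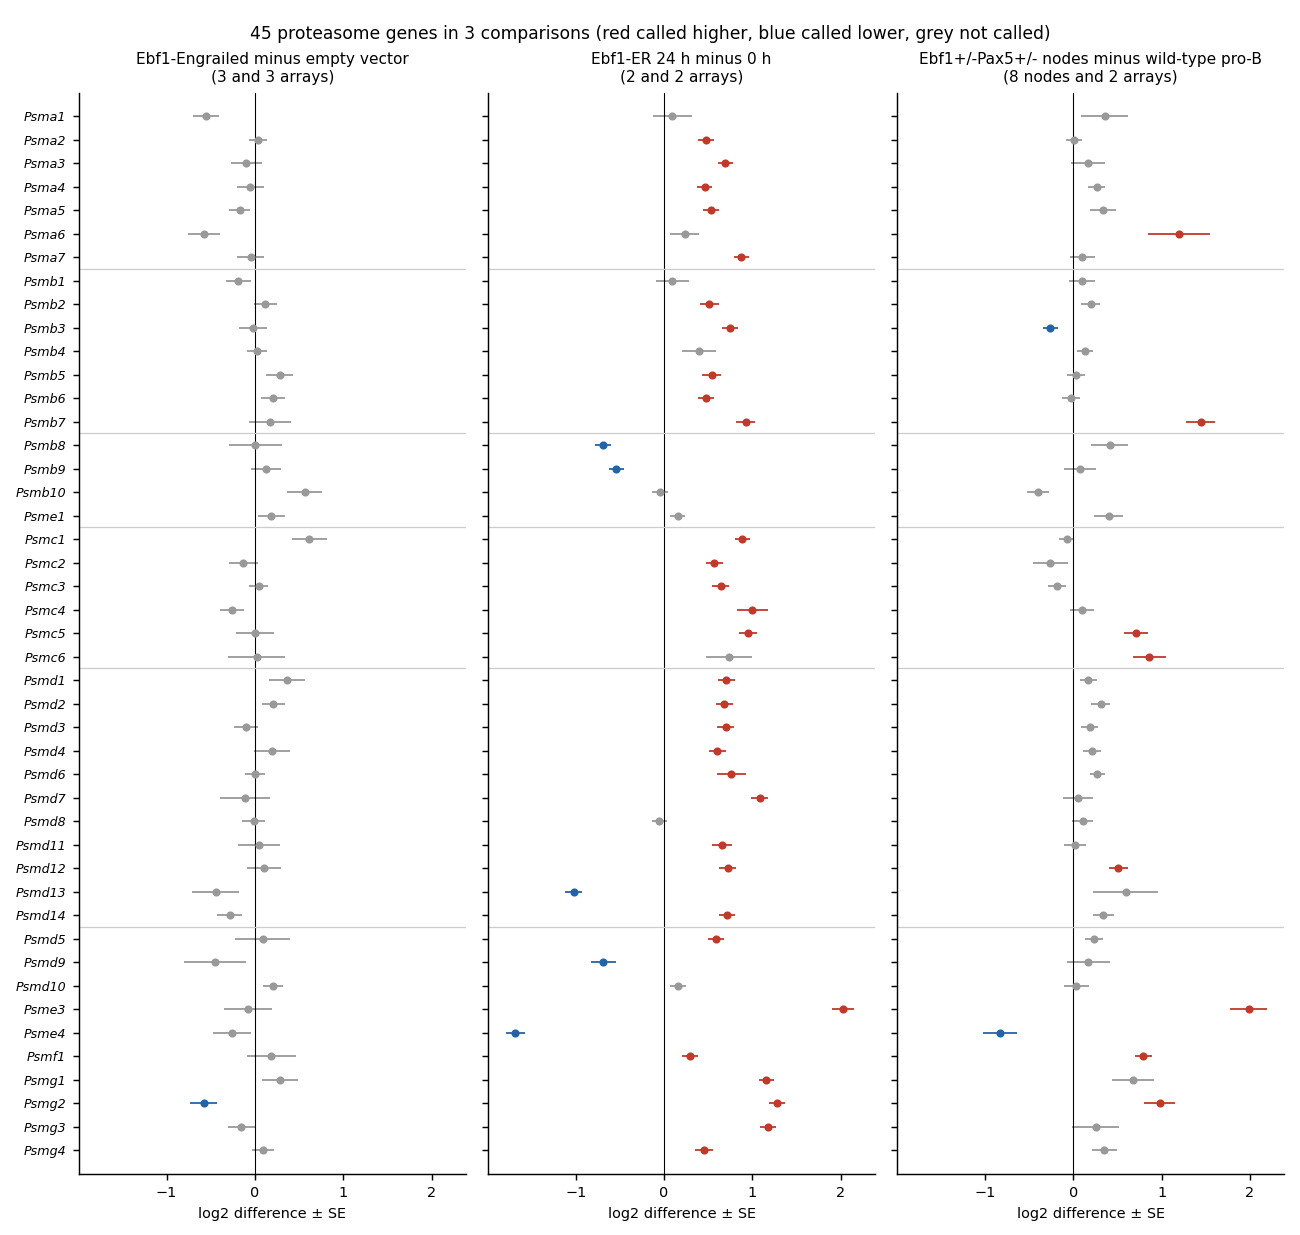
Log2 difference ± SE (horizontal axis) of the 45 proteasome genes, in order of class, for Ebf1-Engrailed against empty vector, 24 h against 0 h of Ebf1-ER, and tumour lymph nodes against wild-type pro-B cells. Red marks genes called higher, blue lower and grey not called: 0 and 1 in the line, 31 and 5 at 24 h, and 8 and 2 in the tumours.

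The 8 lymph nodes could be compared with each other with the disagreement of each node's own 2 arrays, which may be technical, as the error. By limma's moderated F test 36 of the 45 genes differed between nodes (80%), where 59.7% of all genes were called. Their median range between nodes was 0.49 log2 units, below the 0.57 of all genes. Node 292 held the lowest value for 27 of the 45 genes (60%), and for 18% of all genes. It held the highest value for none of them, against 13.4% of all genes. The mean of the 45 was -0.17 in node 292 and between 0.01 and 0.10 in the other 7. Without node 292, 26 of the 45 were called, a count given here without the share of all genes in that smaller fit.

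Psmg1 had the smallest p among the 45. It read -0.73 in node 292, between -0.08 and 0.26 in 6 nodes, and 0.42 in node 381 (adjusted p = 2.9e-06). Psmd13 ran from -1.27 in node 277 to 0.27 in node 381 (adjusted p = 4.9e-06), measured by the probe set that went against its others in the Ebf1-ER course. All 4 immunoproteasome and PA28 genes differed between nodes, and each was lowest in node 292 and highest in node 383. Psmb9 ran from -0.44 to 0.42 (adjusted p = 7.9e-06), Psme1 from -0.46 to 0.24 (adjusted p = 8.8e-06), Psmb10 from -0.27 to 0.20 and Psmb8 from -0.18 to 0.30. Psma8, the testis form of an alpha subunit, read 4.31 in node 381 and between -0.41 and 0.33 in the other 7 (adjusted p = 1.6e-08).

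Node 292 was also low in the cell division list, with a mean of -0.61 beside -0.53 in node 279 and up to 0.33 in node 327. Node 279 had no such low proteasome mean (0.01). Node 292 was the highest of the nodes in the early B list (0.60). For interferon genes, node 292 (0.15) was not the lowest, which was node 317 (-0.80), where the mean of the 4 immunoproteasome and PA28 genes was -0.19 against -0.34 in node 292 and 0.29 in node 383. The part of cell division or cell makeup in the node differences was not tested.

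**Figure D5:**
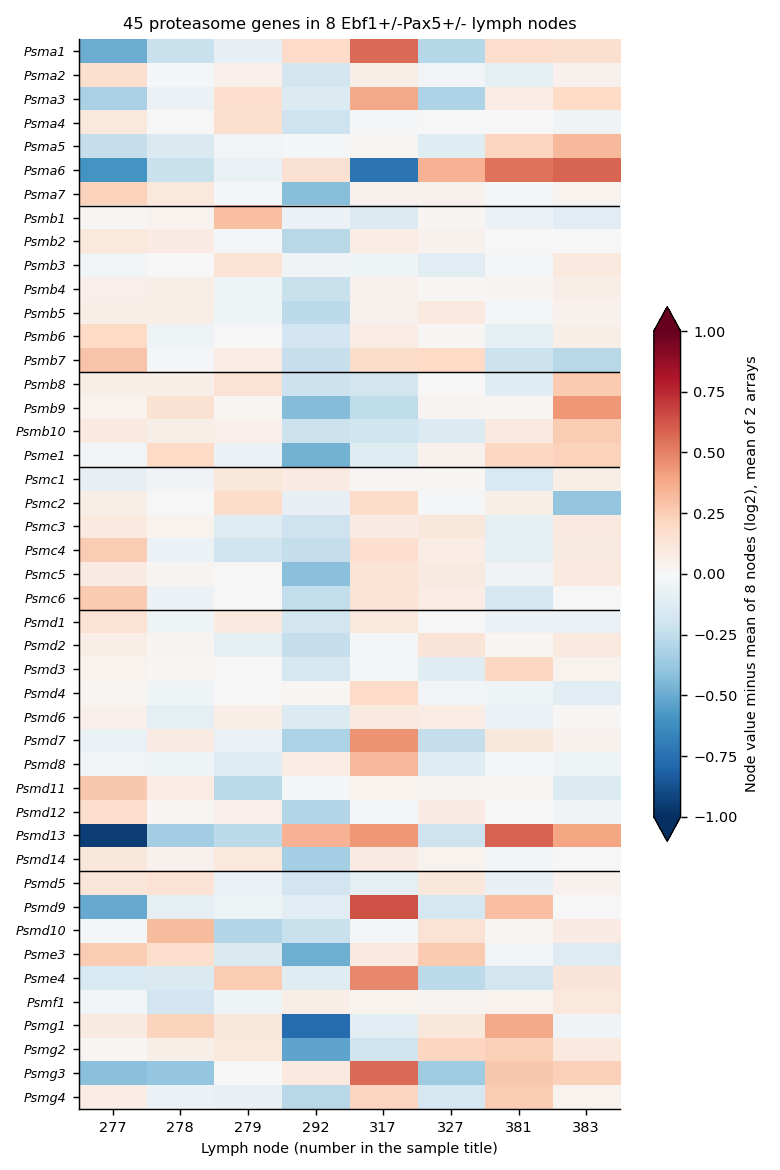
Colour map of the 45 proteasome genes (vertical axis, by class) in the 8 lymph nodes (horizontal axis), each cell the mean of a node's 2 arrays minus the mean of the 8 nodes in log2 units. Node 292 shows the most low cells, being lowest for 27 of the 45 genes.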

How the data were processed

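The authors deposited log2 expression values of 45101 Affymetrix probe sets for the 32 arrays. RMA is the method named, per the submitters' processing notes. The logarithm's base is not given in the sources used here, and log2 was assumed. In these deposited values every probe set had a median of 0 over the arrays of the line and over those of the Ebf1-ER course, and 24.0% had one over the lymph node experiment, so values were centred and levels, depth and signal over background cannot be read from them. Array medians lay between -0.0139 and 0.0495. The number of arrays limits the precision.

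Probe sets with 1 gene in the platform annotation (34958, of which 34754 matched the gene table supplied) gave 18194 genes, and 932 probe sets with several genes and 9211 with none were left out. Each gene was represented by its most variable probe set within an experiment. Groups came from the sample labels. Tests used limma 3.58.1 (lmFit, then eBayes) under R 4.3.3 with version 1.17.8 of data.table, 1 fit per experiment, two-sided, with Benjamini-Hochberg adjustment over all genes and a threshold of 0.05. The 2 arrays of a node were averaged, and nodes were compared with the moderated F test. Node numbers were read as 1 mouse each. The labels do not say whether other replicates came from separate cultures, so p-values cover only the spread between these arrays, and that spread may be technical. No pair of arrays was identical. In the line, deviations of same-numbered arrays correlated (r = 0.286, 0.356 and 0.445). So did array 1 of either group with array 2 of the other (r = 0.289 and 0.141). Arrays numbered 3 correlated negatively with differently numbered arrays of the other group (r from -0.40 to -0.26). The numbers thus need not mark pairs, and the replicate block is given beside the results it changes.

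The members and lists were chosen with earlier results of these data known. Genes named with values were the immunoproteasome and PA28 genes with Psmb5, Psmb6 and Psmb7, the 3 largest increases and decreases per comparison, members called against their class, the 3 smallest p between nodes, and, of the 3 largest called changes of each list, those of genes discussed beside the members. Others were named after their values were seen. Alternatives were the mean of all probe sets, median centring, quantile normalisation, robust eBayes, a filter keeping the 50% most variable genes, 1 fit over all groups, the replicate block or node as random block, and leaving out each replicate. The limma fit was tested on simulated data. Sequences and coordinates are those of RefSeq on GRCm38.p6.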

Additional observations from a re-analysis of the deposited data

Results flagged for a closer look

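Among the 8 lymph nodes, 13 of 49 genes had 1 node far from the other 7, judged by its gap to the next node as a share of the whole range. Chance gives such a gap in about 1 of 20 genes, and 10.9% of all 18194 genes showed one, beside 26.5% of the 49. Node 292 was the low one for 8 of the 13 (16.3% of the 49), where it was so for 1.65% of all genes. It read -0.44 for Psma7, -0.27 for Psmb2, -0.23 for Psmb4, -0.28 for Psmb5, -0.41 for Psmc5, -0.28 for Psmd12, -0.33 for Psmd14 and -0.73 for Psmg1. For Psmd14 the next lowest node was at -0.02, and for Psmg1 at -0.08. These genes cover the core, both parts of the regulatory particle and an assembly factor, and they come from the same 2 arrays, so they are not independent of each other.

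Psma8 read 4.31 in node 381, where the next node was at 0.33. The other 4 genes were Psmb1 in node 279 (0.37), Psmc2 in node 383 (-0.38), and Psmd4 and Psmd8 in node 317 (0.23 and 0.36).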

How the results depend on the processing

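Median centring kept every count of the 45 genes within 1.5 times its value. With Ebf1-Engrailed (1 called), the count was 2 with the mean of probe sets, 0 with quantile normalisation, robust eBayes or the variance filter, 3 in 1 fit over all groups, 4 with the replicate block, 0 to 4 with 1 array left out, and 6 without both arrays numbered 3, an alternative chosen after seeing the data. Against 0 h (37, 38 and 36 called at 6, 12 and 24 h), quantile normalisation gave 14, 25 and 23, all among those called before, and leaving out 1 array gave 29 to 36, 34 to 37 and 34 to 36. Course numbers did not pair arrays (r from -0.25 to 0.15), and the replicate block gave 35, 36 and 35. From 6 h to 24 h (4), the count was 7 with quantile normalisation, 2 with the variance filter, 0 in 1 fit, 3 with the block and 0 to 4 with 1 array left out. In the tumours (10), it was 3 with quantile normalisation, 16 in 1 fit, and 3 to 14 with 1 node or array left out. Between nodes (36), it was 14 with the variance filter, which kept 16 of the 45 genes, 20 in 1 fit and 26 to 37 with 1 node left out. Apart from filters, which test fewer genes, the cause of these shifts was not tested.

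Signs turned for small differences and for Psmd13 (0.042, 0.070 and 0.093 at 6, 12 and 24 h with the mean of probe sets). With Ebf1-Engrailed, Psmb8 was -0.16 with quantile normalisation, and leaving out 1 array gave -0.18 to 0.35 for Psmb8, -0.0081 to 0.26 for Psmb9 and -0.042 to 0.37 for Psmb7, lowest without empty vector 3 for Psmb9 and Psmb7. Psme1 at 24 h was -0.093 with quantile normalisation. From 6 h to 24 h, Pax5 was 0.018 with the mean of probe sets, and leaving out 1 array gave -0.11 to 0.094 for Pax5 and -0.054 to 0.020 for Psmb5. In the tumours, Pax5 was -0.18 with the mean of probe sets and Psmb5 -0.0046 with quantile normalisation. Leaving out 1 node or array there gave -0.060 to 0.88 for Psmb8, -0.0058 to 0.069 for Psmb5 and -0.075 to 0.019 for Psmb6, with the extremes at 621 and 622.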
